A study of Homo sapiens with 45 samples.

Results

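The comparison described here is the response of Jurkat cells to lasting inhibition of the BAF ATPases. Jurkat is a human line of T-cell acute lymphoblastic leukaemia (T-ALL), and 6 of the 45 libraries of the study enter the comparison. In 3 of them the cells had been kept in 1 uM BRM014 for 8 days, and in the 3 others in 0.01% DMSO, the solvent, for the same time. The libraries were chosen by these labels alone, which name each as a biological replicate, and all genes of the table were considered. The design text of the study describes the inhibitor at 6 h, while the labels of these 6 libraries give 8 days. Where 6 h values are given, they come from 3 libraries with 1 uM BRM014 and 3 with 0.01% DMSO taken at that time. Where guide values are given, they compare Cas9-expressing Jurkat cells carrying guides against SMARCA4 and SMARCA2 (gSMARCA4_A2, 3 libraries) with cells carrying guides against the AAVS1 site (gAAVS1, 3 libraries), with RNA taken 10 days after lentiviral transduction and puromycin selection. Labels do not say whether the replicates came from separate thaws or clones. The p-values measure the spread between libraries of a group, estimated over all 27 Jurkat libraries in 1 fit and not over these 6 alone.

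BAF complexes use the energy of ATP to slide and evict nucleosomes and so keep enhancers and promoters open to transcription factors. Each complex carries a single ATPase, either SMARCA4 (BRG1) or SMARCA2 (BRM), and the further subunits sort the complexes into canonical BAF, PBAF and non-canonical BAF. BRM014 blocks the ATPase activity of both proteins without removing them. T-ALL cells resemble thymocytes halted during maturation, and their identity rests on enhancers bound by factors such as TAL1, GATA3, RUNX1 and MYB.

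Levels are in TPM, which divides reads by gene length and scales each library to the same total, and differences are on a log2(TPM + 1) scale with standard errors from limma, so that the change of genes near silence is understated. A call means an adjusted p under 0.05 over all 17936 genes tested. The 6 libraries held 33432341 to 40567149 reads on genes, so that 1 read on a gene of median length was worth 0.0255 to 0.0313 TPM. Mitochondrial mRNA took 23.1 to 23.9% of TPM in all 6. The BRM014 libraries resembled each other more closely than the DMSO libraries did: among genes with a mean of at least 10 TPM, 37 of 9929 (0.37%) differed at least 2-fold between BRM014 libraries, and 83 of 9701 (0.86%) between DMSO libraries. DMSO replicate 1 was the highest of its group in 53 of these 83 genes. Genes named here whose call was lost or whose difference moved over 1.5 times without it are given with that value, apart from CEBPB and SESN2.

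The T cell label was checked against CD3E, CD3D, CD3G and CD247, the signalling chains of the T cell receptor complex, whose mean levels in DMSO were 619, 475, 106 and 76.9 TPM. With BRM014 they stood at 1005, 597, 164 and 82.4 TPM, and the first 3 rose (0.70, 0.33 and 0.62) while CD247 was not called (0.10, adjusted p = 0.14). Among the other T cell markers CD7 rose from 11.8 to 34.5 TPM (1.47) and the receptor-proximal kinase LCK from 200 to 251 TPM (0.32), and the surface molecules CD5 (34.4 to 17.9 TPM, -0.90) and CD2 (4.79 to 2.73 TPM, -0.62) fell. The decrease of CD2 was not called without DMSO replicate 1 (-0.48, adjusted p = 0.1) or without BRM014 replicate 1 (-0.61, adjusted p = 0.052).

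Lasting inhibition was accompanied by many small changes and a smaller set of large ones. Calls were made for 10739 of 17936 genes (59.9%), with 6612 upward (36.9%) and 4127 downward (23%) and a median difference of 0.08 over all genes. With only these 6 libraries in the fit, the calls were 5395 upward and 3201 downward. A difference of at least 1 on the log2 scale was reached by 722 genes upward (4.03%) and 383 downward (2.14%). All 3 BRM014 libraries lay above all 3 DMSO libraries in 6512 genes (36.3%) and below them in 4037 (22.5%). The balance of directions depended on the scaling: after median-ratio rescaling of the libraries the median moved to -0.00 and the split was 5302 higher and 5502 lower. Both TPM and rescaled values are shares of a library, and whether the RNA content per cell changed was not measured. In bulk RNA, fewer cells of a kind and less RNA per cell cannot be told apart.

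The genes with the larger changes came from different ranges of expression, which is in part built in by the selection. A fall of at least 1 on the log2(TPM + 1) scale needs a mean of at least 1 TPM in DMSO, while a rise does not. Genes near silence in DMSO were tested only if they reached 1 TPM in 3 or more of the 27 libraries. How much of the contrast this makes was not tested. The 722 genes that rose by at least 1 had a median of 2.3 TPM in DMSO and 7.9 TPM with BRM014, and the 383 that fell by at least 1 had 14.8 and 3.74 TPM, against 12.1 and 13 TPM for all genes tested. Protein-coding genes made up 72.7% and 66.6% of them, against 71.4% of all. The number of CpG dinucleotides in the 300 bases around the start of protein-coding genes had a median of 25 in the first set (394 promoters) and 22.5 in the second (198 promoters), against 26 in all (10496 promoters). The lower quartile was 12 CpG in the rising set and 5 in the falling set, against 17 in all.

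EEF1A2, an elongation factor of translation normally found in nerve and muscle (chromosome 20, 63488014 to 63499083, GRCh38.p14), had the largest increase on the log2(TPM + 1) scale, while with a pseudocount of 0.1 TRIB1 (6.21) stood above it (6.07). Its level was 0.383, 0.295 and 0.29 TPM in the DMSO libraries and 30.3, 25.6 and 28.9 TPM in the BRM014 libraries (adjusted p = 2.4e-17). It thus went from 7 to 9 reads per library to between 651 and 875. CCR4, a chemokine receptor of skin-homing and regulatory T cells, stood at 3.7, 2.56 and 2.71 TPM in DMSO and 49.6, 46.6 and 49.7 TPM with BRM014, a difference of 3.65 ± 0.32 (adjusted p = 4.8e-09). SOSTDC1, a secreted antagonist of BMP and Wnt signals, went from 17.9, 20.9 and 25.8 TPM to 236, 232 and 240 TPM (3.41 ± 0.11). All BRM014 libraries were far above all DMSO libraries for these 3 genes.

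GZMA, which encodes the protease granzyme A of cytotoxic cells (chromosome 5, 55102646 to 55110252), was at 2.52, 1.68 and 0.901 TPM in DMSO and 25.2, 20.8 and 31.4 TPM with BRM014 (3.34 ± 0.25). SPRY4, a feedback inhibitor of receptor tyrosine kinase signalling (chromosome 5, 142310430 to 142325021), rose from 3.41, 2.07 and 1.27 TPM to 28.8, 29.9 and 28.8 TPM (3.27 ± 0.17). In both genes the DMSO libraries were spread over more than 2-fold and none reached the BRM014 range. The NAD-consuming ectoenzyme CD38 went from 16.8, 10.1 and 8.3 TPM to 99.9, 102 and 104 TPM (3.07 ± 0.22). ITM2A, a membrane protein induced when thymocytes are positively selected (chromosome X, 79360384 to 79367334), climbed from 162, 204 and 226 TPM to 1589, 1581 and 1699 TPM (3.04 ± 0.09) and so became an abundant mRNA. The other large increases were in TRIB1, a pseudokinase that directs protein degradation, CTHRC1, a secreted protein of extracellular matrix, HEY1, a repressor induced by Notch, EPAS1 (HIF-2alpha), the vesicle protein SYT11, the LIM-domain protein CRIP2, DBNDD1 and NSMF, with differences from 3.12 (SYT11) to 4.19 (TRIB1).

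A small number of genes crossed from near silence to clear expression. Under 0.5 TPM in every DMSO library and at least 5 TPM in every BRM014 library were 6 genes, EEF1A2, TRIB1, CRIP2, OOEP, NGFR and PTP4A3. TRIB1 had 7, 10 and 13 reads in DMSO and 1179, 1192 and 1188 reads with BRM014. CRIP2 had 17, 21 and 16 reads and then 695, 535 and 568, and the neurotrophin receptor NGFR 7, 16 and 11 reads and then 338, 286 and 249. The count rests on the thresholds: with an expression threshold of 2 TPM there were 44 such genes, with a silence threshold of 0.2 TPM there were 0, and without DMSO replicate 1 there were 10.

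CXCR4, the receptor for the chemokine CXCL12 (chromosome 2, 136114349 to 136118149), stood at 302, 234 and 224 TPM in DMSO and 13.4, 12.5 and 12.1 TPM with BRM014 (-4.21 ± 0.11). TRAT1, a transmembrane adaptor of the T cell receptor complex, went from 25.3, 24.4 and 25.2 TPM to 0.503, 0.381 and 0.642 TPM (-4.11 ± 0.09, adjusted p = 5e-19). MZB1, a chaperone cofactor of the endoplasmic reticulum (chromosome 5, 139387467 to 139389913), fell from 209, 169 and 164 TPM to 8.95, 10.2 and 10.2 TPM (-4.07 ± 0.07, adjusted p = 1.4e-20). With limma fitted on the 6 compared libraries alone, the adjusted p was 2e-06 for CXCR4, 9.8e-07 for TRAT1 and 1.6e-06 for MZB1. In each of them all BRM014 libraries were far below all DMSO libraries.

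CD6, a co-receptor that binds CD166 on other cells (chromosome 11, 60971680 to 61020377), had 20.9, 20.6 and 20 TPM in DMSO and 0.547, 0.472 and 0.677 TPM with BRM014 (-3.78 ± 0.10). GFRA1, a receptor for the growth factor GDNF, fell from 78.9, 52.6 and 47.9 TPM to 4.95, 5.42 and 4.5 TPM (-3.32 ± 0.13). DNTT, the terminal transferase that adds bases at V(D)J junctions, went from 89.1, 48.9 and 31.6 TPM to 6.22, 5.49 and 4.41 TPM (-3.06 ± 0.22). All BRM014 libraries were below all DMSO libraries in these 3 genes, with a close range in DMSO for CD6 and a wide range for DNTT. Further large decreases were in CD1E, which handles lipid antigens, CD48, an adhesion molecule of lymphocytes, ITGAL, the alpha chain of the integrin LFA-1, the vitamin C transporter SLC23A1 and the potassium channel KCNA6, from -3.57 (CD1E) to -2.61 (KCNA6). FXYD2, a regulatory subunit of the sodium pump, fell by 3.77 on the log2 scale, and FXYD6-FXYD2, a readthrough transcript that shares its exons, cannot be told apart from it.

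Crossing in the other direction, from at least 5 TPM in every DMSO library to under 0.5 TPM in every BRM014 library, were 3 genes. PLA2G3, a secreted phospholipase A2 (chromosome 22, 31134807 to 31140508), had 1461, 1304 and 896 reads in DMSO and 3, 1 and 1 reads with BRM014. SPP1, which encodes osteopontin, had 301, 285 and 153 reads and then 1, 2 and 2. The third was the long noncoding RNA LOC105375631. With an expression threshold of 2 TPM there were 20 such genes.

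**Figure D1:**
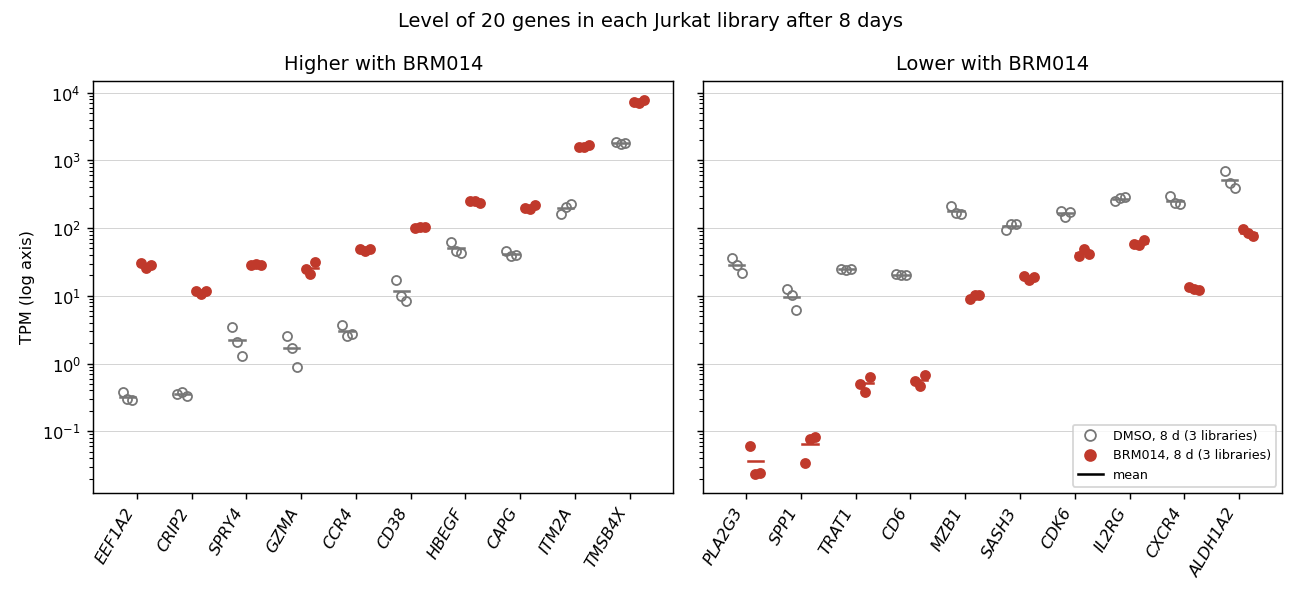
Level in TPM, on a log axis, of 10 genes that rose (left) and 10 that fell (right) in the 3 DMSO libraries (open circles) and the 3 BRM014 libraries (filled circles) of 8 days, with bars at the means. In each gene the circles of both groups lie apart, from EEF1A2, at 0.322 TPM in DMSO and 28.3 TPM with BRM014, to PLA2G3, at 28.9 and 0.0363 TPM.

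Some of the changes were in abundant mRNAs. TMSB4X, which encodes the actin-sequestering peptide thymosin beta 4 (chromosome X, 12975110 to 12977223), stood at 1847, 1735 and 1827 TPM in DMSO and 7345, 7012 and 7854 TPM with BRM014 (2.04 ± 0.06, adjusted p = 7.8e-17). Its gain of 5601 TPM was the largest of any gene in the table. HBEGF, a growth factor of the EGF family, rose from 62.2, 45.5 and 43.4 TPM to 254, 253 and 233 TPM (2.29 ± 0.13), the actin-capping protein CAPG from 41.7 to 205 TPM (2.27) and the lymphocyte receptor SLAMF6 from 34.2 to 146 TPM (2.07). Other genes of the actin system, picked after their values were seen, rose by less: PFN1 (0.98), ACTG1 (0.82), TMSB10 (0.80), CFL1 (0.71) and ACTB (0.59), the last from 6056 to 9108 TPM. Among abundant genes that fell was ALDH1A2, which makes retinoic acid, at 687, 468 and 396 TPM in DMSO and 96.3, 84.8 and 76.8 TPM with BRM014 (-2.54 ± 0.16). The argininosuccinate synthase ASS1 fell by 2.23 and the glycolytic enzyme GAPDH by 0.77, from 4213 to 2477 TPM.

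The targets of the inhibitor and their partner subunits remained expressed. SMARCA4 stood at 88.9, 89.7 and 91.6 TPM in DMSO and 105, 103 and 100 TPM with BRM014 (0.19 ± 0.06, adjusted p = 0.0083). After median-ratio rescaling this difference was 0.09 and was not called (adjusted p = 0.21). SMARCA2 had 23.4, 19.9 and 19.3 TPM and then 31.6, 32.8 and 34.5 TPM (0.64 ± 0.07). ARID1A, the DNA-binding subunit of canonical BAF, went from 76.9 to 120 TPM (0.64) and its paralog ARID1B from 21.3 to 28.4 TPM (0.41).

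Of 27 BAF subunit genes tested, 18 were higher, 4 lower and 5 not called, with a median of 0.19 against 0.08 for all genes. Over all genes tested 36.9% were higher and 23% lower, the shares to set beside the counts of this and every later list at 8 days. After median-ratio rescaling 12 BAF subunit genes were higher and 5 lower, with a median of 0.09 against -0.001 for all genes. BICRAL, a subunit of non-canonical BAF, had the largest rise, from 10.9 to 29.6 TPM (1.37), followed by SMARCD3 (1.07) and BICRA (0.67). ARID2, which defines PBAF, fell by 0.45 and the non-canonical subunit BRD9 by 0.26, and the PBAF subunit PBRM1 was not called (0.12, adjusted p = 0.098). Of 27 other nucleosome remodellers 11 rose and 11 fell (median 0.03), with 7 rising without DMSO replicate 2, the NuRD subunit MTA3 (0.85) and CHD7 (0.77) having the largest changes. Of 31 polycomb genes 16 were higher and 7 lower (median 0.12), with PHF19, which recruits the H3K27 methyltransferase complex, at 1.18 and CBX8 at 0.90.

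Genes of T cell receptor signalling were divided at 8 days. Of 41 tested, 18 were higher and 16 lower, with a median of 0.12, against 4 higher and 33 lower with a median of -0.57 at 6 h. Over all genes 36.9% were higher and 23% lower at 8 days, and 26.8% and 20.7% at 6 h. SASH3, an adaptor of lymphocytes, stood at 94.5, 116 and 113 TPM in DMSO and 19.5, 17 and 18.8 TPM with BRM014 (-2.49 ± 0.07), and the adaptor GRAP2 fell by 2.05. SH2D2A, a further adaptor of receptor signalling, rose from 11.4, 11.8 and 13.1 TPM to 62.8, 63.1 and 70.3 TPM (2.34 ± 0.16). The groups were separate in each of these genes. Members of the pathway therefore ended both far above and far below their DMSO level while CD3E rose by 0.70.

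Genes of the cortical thymocyte stage were lower in 12 of 17 tested and higher in 0, with a median of -0.80. RAG1, which cuts DNA in V(D)J recombination, went from 31.9, 27.4 and 18.2 TPM to 4.32, 4.31 and 4.14 TPM (-2.32 ± 0.14), and the lipid-presenting molecule CD1D from 574, 451 and 430 TPM to 290, 279 and 260 TPM (-0.80). CD1E, DNTT and MZB1, given above, belong to the same list, whose members were chosen with earlier results of these data known. MZB1 counts here by list membership alone and is not particular to thymocytes. The GIMAP genes, a cluster of lymphocyte GTPases on chromosome 7, were lower in 6 of 6 tested, with a median of -0.99, from GIMAP4 (-1.82), GIMAP2 (-1.73) and GIMAP7 (-1.13) to smaller changes. Of 30 T cell surface molecules tested, 9 were higher and 16 lower (median -0.38).

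Receptors for positioning and growth signals changed in both directions. Of 28 chemokine receptors and homing molecules tested, 12 were higher and 11 lower (median -0.01), beside 36.9% higher and 23% lower of all genes. Beside CXCR4 and ITGAL, the integrin chain ITGA4 fell by 0.83. Of 33 cytokine and receptor genes 17 rose and 9 fell (median 0.28). IL2RG, the gamma chain shared by several interleukin receptors (chromosome X, 71107404 to 71111577), had 254, 275 and 288 TPM in DMSO and 58.8, 56.7 and 66.3 TPM with BRM014 (-2.15 ± 0.06, adjusted p = 2.1e-17). SOCS1, an inhibitor of JAK kinases, rose from 0.62, 1.07 and 0.845 TPM to a mean of 13.4 TPM (2.97 ± 0.22), and SOCS2 by 1.82. So the common receptor chain was lower and both feedback inhibitors were higher in every library.

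The transcription factors of the T lineage had 23 higher and 17 lower of 49 tested (median 0.15). ID2, an inhibitor of E proteins, went from 5.34, 7.04 and 7.85 TPM to 43.5, 38.5 and 47.9 TPM (2.52 ± 0.11), and ZBTB7B (ThPOK), the CD4-lineage factor, from 3.39 to 12 TPM (1.57). IKZF2 (Helios) fell from 21.6 to 3.87 TPM (-2.22) and TCF7, a factor that acts early in the T lineage, from 11.7 to 2.19 TPM. Of the factors of the T-ALL core circuit, TAL1 stood at 61.4, 54.8 and 57.5 TPM in DMSO and 140, 138 and 143 TPM with BRM014 (1.26 ± 0.07). GATA3 had 56.5, 44.1 and 38.6 TPM and then 55.6, 56.9 and 59.7 TPM, so that DMSO replicate 1 lay within the BRM014 range (0.32, adjusted p = 0.035). Without each of the other 5 libraries GATA3 was not called (adjusted p = 0.052 to 0.21). RUNX1 (-0.11, adjusted p = 0.22) and MYB (-0.18, adjusted p = 0.11) were not called. LEF1 fell by 0.39, from 689, 494 and 488 TPM to 399, 440 and 422 TPM, and by 0.23 without DMSO replicate 1.

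Of 28 Notch pathway genes 19 rose and 5 fell (median 0.33), and after median-ratio rescaling 8 were lower. HEY1 had the largest difference (3.90), followed by NRARP, a feedback regulator induced by Notch, from 2.28, 2.05 and 1.7 TPM to 10.1, 9.33 and 9.12 TPM (1.81 ± 0.11), and LFNG, a glycosyltransferase that modifies Notch, from 0.529 to 4.24 TPM (1.77). The receptor NOTCH1 rose from 16.1 to 20.5 TPM (0.34) and NOTCH3 fell from 22.5, 21.9 and 17.1 TPM to 7.11, 6.87 and 6.8 TPM (-1.43). Of 26 Wnt pathway genes 14 rose and 5 fell (median 0.19, and 8 lower after rescaling), with WNT5B at 1.62 and the antagonist NKD2 at -1.85.

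Among phosphatases and feedback inhibitors 15 of 30 were higher and 9 lower (median 0.18). PTPN6 (SHP-1), which dampens antigen receptor signals, stood at 30.6, 34.2 and 34.5 TPM in DMSO and 119, 115 and 140 TPM with BRM014 (1.88 ± 0.14). NF-kB factors and targets were higher in 15 of 25 and lower in 1 (median 0.23), with the adaptor TRAF1 at 1.78 and the subunit RELB at 1.53. Of 26 AP-1 and immediate early genes 14 rose and 7 fell (median 0.27), led by FOSL2, from 1.89 to 11.1 TPM (2.07). With a filter of 5 TPM, which tests fewer genes, 5 of this list were higher and 6 lower (median 0.029). The genes EGR4 (1.56) and NR4A2 (1.26) rose as well, though their means with BRM014 were 2.18 and 1.6 TPM.

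Genes of cholesterol synthesis and uptake fell together. Of 30 tested, 24 were lower, 3 higher and 3 not called, with a median of -0.94. ACAT2, which makes acetoacetyl-CoA in the cytosol, had 1241, 1090 and 964 TPM in DMSO and 311, 315 and 295 TPM with BRM014 (-1.83 ± 0.22), and HMGCS1, the next enzyme, had 522, 571 and 607 TPM and then 141, 156 and 139 TPM (-1.96 ± 0.26). LSS (-1.64) and MSMO1 (-1.60), which act later in the pathway, fell as well. The summed level of the list was 6511 to 7388 TPM in the DMSO libraries and 3074 to 3232 TPM in the BRM014 libraries.

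Related lipid genes followed in part. Of 20 genes that make fatty acids 12 fell and 5 rose (median -0.29). The elongase ELOVL6 fell by 1.78, the acetyl-CoA synthetase ACSS2 by 1.77 and the desaturase SCD by 1.35, the last from 917, 864 and 848 TPM to 338, 358 and 333 TPM. Of 12 genes of sterol efflux, which are induced by LXR when sterols are plentiful, 6 were higher and 4 lower (median 0.13), and its main transporters ABCG1 (-1.11) and ABCA1 (-0.85) fell.

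Genes of amino acid supply and of the ATF4 stress response were lower in 24 of 33 tested and higher in 4 (median -0.49). SLC7A11, the cystine transporter, went from 22.4, 13.5 and 11.4 TPM to 1.78, 2.21 and 2.01 TPM (-2.43 ± 0.26). PHGDH, the first enzyme of serine synthesis, went from 138, 99.2 and 76.8 TPM to 38, 35.6 and 36.4 TPM (-1.45 ± 0.15), and VLDLR, a lipoprotein receptor, fell by 2.33. The groups were apart in all 3 genes.

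ASNS, the asparagine synthetase, went the other way, from 77.2, 36.2 and 25.8 TPM to 81.5, 89.3 and 86.6 TPM (1.02 ± 0.32, adjusted p = 0.01). Without DMSO replicate 3 the difference was 0.69 and was not called (adjusted p = 0.085). With only the compared groups in the fit ASNS was not called either (adjusted p = 0.06). DMSO replicate 1 came close to the BRM014 libraries there. ASNS is induced through an element bound by ATF4, and its promoter is shown because it stands apart from the list. The 300 bases lie at chr7:97872359-97872658 on the minus strand (RefSeq, GRCh38.p14), with a match to the ATF4-type element TGATGNAA in capitals.

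ASNS: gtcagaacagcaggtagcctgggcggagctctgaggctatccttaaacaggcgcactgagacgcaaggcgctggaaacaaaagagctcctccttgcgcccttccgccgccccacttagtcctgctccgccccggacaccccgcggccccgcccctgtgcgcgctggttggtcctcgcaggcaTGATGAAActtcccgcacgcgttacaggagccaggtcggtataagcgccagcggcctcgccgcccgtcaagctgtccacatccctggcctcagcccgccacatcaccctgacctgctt

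This element, searched on both strands, occurred in 5 of 29 promoters of the list that could be matched (17.2%), in 1.67% of 10496 promoters of protein-coding genes tested and in 3.67% of all 27305 promoters of the table. A match describes the letters only.

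Some genes of this list varied widely among the DMSO libraries. Of 30 members with a mean of at least 10 TPM in DMSO, 5 differed at least 2-fold between the DMSO libraries and were highest in replicate 1, namely SESN2, ATF3, CEBPB, ASNS and VLDLR, and 0 of 25 did so among the BRM014 libraries. ASS1, outside the list, had 215, 101 and 60.4 TPM in DMSO and 24.5, 22.4 and 21.1 TPM with BRM014. TXNIP, which binds thioredoxin and limits glucose uptake, showed the reverse order, with 4.45, 17 and 21.6 TPM in DMSO and 39.9, 36.5 and 37.2 TPM with BRM014 (1.58). Without DMSO replicate 1, the difference of TXNIP was 0.95 (still called), and that of ATF3, a stress-induced repressor, went from -0.75 to -0.42 (adjusted p = 0.085) and was not called.

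**Figure D2:**
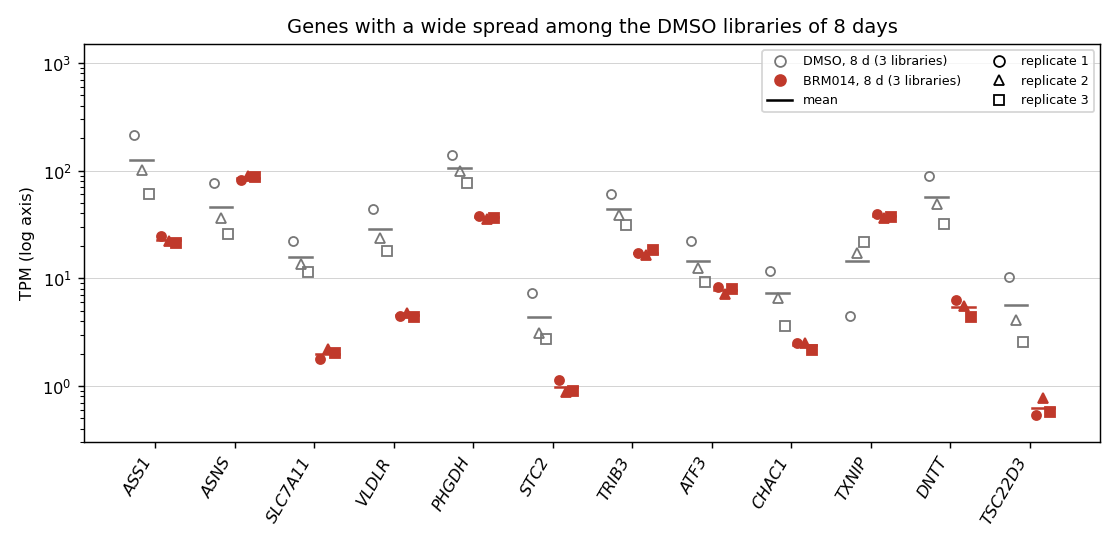
Level in TPM, on a log axis, of 12 genes with a wide range among the DMSO libraries of 8 days (open symbols), with the BRM014 libraries filled, bars at the means and shapes for replicate numbers. The genes were picked for display and not by the 2-fold mark of the text, which PHGDH and SLC7A11 do not reach. DMSO replicate 1 (circle) is the highest DMSO library in each of them except TXNIP, where it is the lowest at 4.45 TPM. Over all genes that reached the mark it was the highest in 53 of 83. The BRM014 libraries lie close together.

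Energy metabolism and lysosomes were described by 3 further lists. Genes of glycolysis and of the hypoxia response were lower in 22 of 36 and higher in 8 (median -0.25), with VEGFA at -2.21 and the muscle-type phosphofructokinase PFKM at -1.17, while the lactate exporter SLC16A3 rose from 3.29 to 17.7 TPM (2.14). Of 36 lysosome and autophagy genes 27 rose and 3 fell (median 0.37). PSAP, the precursor of saposins, went from 529, 537 and 532 TPM to 1045, 987 and 1003 TPM (0.92 ± 0.04), and the protease CTSB from 10.1, 10.1 and 10.2 TPM to 21.3, 21.6 and 22 TPM (1.02 ± 0.05). In both genes the BRM014 libraries lay above the DMSO libraries, with little spread within either group. Nuclear genes of oxidative phosphorylation were 16 higher and 14 lower of 63 (median -0.01), after median-ratio rescaling 8 higher and 26 lower, and without BRM014 replicate 2 9 were lower.

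Of 50 DNA replication genes 39 fell and 3 rose, with a median of -0.38 and none past 1 on the log2 scale. CDC6, which loads the replicative helicase, went from 58.7, 62.9 and 66.7 TPM to 31.7, 32.1 and 33.1 TPM (-0.93 ± 0.06), the origin recognition subunit ORC1 fell by 0.74, and the sliding clamp PCNA from 566 to 404 TPM (-0.49). MCM6, a subunit of the helicase, had 209, 195 and 199 TPM and then 148, 158 and 151 TPM (-0.40 ± 0.04). The groups were separate in CDC6 and MCM6 by margins wider than the range within either group.

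The promoters of CDC6 (chr17:40287629-40287928, plus strand) and MCM6 (chr2:135876394-135876693, minus strand, both RefSeq, GRCh38.p14) are shown because replication genes are classical targets of E2F factors. Matches to the E2F-type motif TTTNGCGC, searched on both strands, are in capitals. In MCM6 each stretch of capitals holds 2 overlapping matches, 1 on each strand, and so 4 in all.

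CDC6: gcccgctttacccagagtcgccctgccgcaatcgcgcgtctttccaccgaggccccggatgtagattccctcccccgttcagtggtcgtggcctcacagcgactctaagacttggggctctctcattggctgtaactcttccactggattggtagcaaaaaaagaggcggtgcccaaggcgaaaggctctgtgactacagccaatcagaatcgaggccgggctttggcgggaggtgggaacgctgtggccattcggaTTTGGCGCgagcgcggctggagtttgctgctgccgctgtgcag

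MCM6: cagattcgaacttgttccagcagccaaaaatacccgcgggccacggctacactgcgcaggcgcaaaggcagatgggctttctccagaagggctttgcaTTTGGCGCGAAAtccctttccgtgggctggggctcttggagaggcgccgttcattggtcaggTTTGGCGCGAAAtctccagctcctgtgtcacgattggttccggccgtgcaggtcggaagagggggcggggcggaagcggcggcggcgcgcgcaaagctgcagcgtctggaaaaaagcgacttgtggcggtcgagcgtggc

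This motif occurred in 16 of 43 matched promoters of the replication list (37.2%), in 3.04% of promoters of tested protein-coding genes and in 1.83% of all promoters in the table. In the mitosis list 1 of 33 promoters held it (3.03%).

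Of 40 mitosis genes 28 fell and 1 rose (median -0.27), with the cytokinesis factor ECT2 at -0.80 and the kinetochore protein NUF2 at -0.76. CDK6, a kinase of the G1 phase (chromosome 7, 92604921 to 92836573), had 180, 147 and 172 TPM in DMSO and 38.6, 48.9 and 41.9 TPM with BRM014 (-1.93 ± 0.09), and its partner cyclin CCND3 had 277, 198 and 141 TPM and then 91.9, 78.7 and 85.7 TPM (-1.20 ± 0.15). Among CDK inhibitors CDKN1A rose from 3.73 to 7.52 TPM (0.87) and CDKN1C from 0.161 to 1.18 TPM (0.91). The G1 list as a whole had 6 higher and 7 lower of 19 (median 0.12).

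Cytosolic ribosomal proteins were lower in 44 of 70 and higher in 1 (median -0.14, and 3 higher without DMSO replicate 1), with RPSA at -0.52. MYC fell from 168 to 87.8 TPM (-0.93). Its network had 4 higher and 5 lower of 19 (median -0.05, and 10 lower after rescaling), with the MYC antagonist MXD4 at 1.78. Of 30 ribosome biogenesis genes 5 rose and 10 fell (median -0.03). After rescaling 0 rose, and without single libraries 2 to 5 rose (2 without DMSO replicate 1) and 6 to 10 fell (6 without BRM014 replicate 3 or DMSO replicate 3), with the nucleolar protein NPM1 at -0.55. Replication-dependent histones, whose mRNAs mostly lack the poly(A) tail that the libraries select, were higher in 11 of 19 tested and lower in 0 (median 0.58), yet the list summed to only 28.6 to 31.6 TPM in DMSO and 62.9 to 67 TPM with BRM014. H2AC6 led them, at 3.22 and 13 TPM (1.74).

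Death receptors and caspases were higher in 16 of 26 and lower in 4 (median 0.45). TNFRSF10D, a decoy receptor for TRAIL, went from 1.22, 0.647 and 0.685 TPM to 12, 11.6 and 11.6 TPM (2.80 ± 0.13), the TRAIL receptor TNFRSF10A from 0.511 to 6.37 TPM (2.29), and CFLAR, which restrains caspase 8, from 1.47 to 4.99 TPM (1.28). In the BCL2 family 7 of 18 were higher and 5 lower, near the 36.9% and 23% of all genes, and the median was 0.06 (which turned to -0.03 after rescaling). Among them the pro-death gene BMF rose from 1.46 to 11.2 TPM (2.33), the pro-death gene PMAIP1 fell by 1.00 and the survival gene BCL2L1 by 0.57. BCL2 itself had 12.1, 7.74 and 6.83 TPM in DMSO and 6.01, 7.04 and 6.92 TPM with BRM014, with overlapping groups (-0.33, adjusted p = 0.04, and -0.12 and not called without DMSO replicate 1). It was not called either without BRM014 replicate 1 (adjusted p = 0.14) or replicate 3 (adjusted p = 0.057).

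Among p53 targets and antiproliferative genes 14 of 27 were higher and 6 lower (median 0.18). BTG2, which slows proliferation, rose from 8.81, 7.97 and 6.21 TPM to 49.6, 46.6 and 39.7 TPM (2.42 ± 0.10), and TP53INP1 by 1.70. TSC22D3, a target of glucocorticoids, fell from 10.3, 4.1 and 2.56 TPM to 0.534, 0.77 and 0.576 TPM (-1.86). Heat shock chaperones had 7 higher and 1 lower of 16 (median 0.20), but 2 higher and 5 lower without DMSO replicate 1, 3 higher without BRM014 replicate 1, and 2 higher after rescaling. The co-chaperone BAG3 rose by 1.17.

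Of 36 interferon response genes 18 rose and 8 fell (median 0.16). The factor IRF1 went from 13.2 to 36.7 TPM (1.41). IFI44 came close to 0, at 3.66, 3.91 and 4.44 TPM in DMSO and 0.0207, 0.0235 and 0.0495 TPM with BRM014. Genes of MHC antigen presentation were higher in 13 of 20 and lower in 4 (median 0.22, and 2 lower without BRM014 replicate 2, DMSO replicate 2 or DMSO replicate 3), with HLA-E, a ligand of inhibitory NK receptors, at 1.44. With only the compared groups in the fit 8 were higher and 1 lower. The summed level of this list went down, from 2053 to 2578 TPM in the DMSO libraries to 1886 to 1976 TPM in the BRM014 libraries. Of 24 HOX genes 15 rose and 2 fell (median 0.29), with HOXD12 going from 2.08 to 5.87 TPM (1.17). The 13 mitochondrially encoded mRNAs had 2 higher and 2 lower (median -0.03), with 0 higher and 4 lower after rescaling. Without single libraries 0 or 1 was higher (0 without BRM014 replicate 2 or DMSO replicate 1).

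Markers of other cell types were checked next. Under 0.5 TPM in all 6 libraries were 8 of 11 B cell, 14 of 18 myeloid, 11 of 18 erythroid and megakaryocyte, 13 of 18 NK and cytotoxic, 9 of 16 epithelial and fibroblast and 14 of 30 neuronal genes, among them MS4A1, PAX5, CD14, LYZ, MPO, SPI1, GATA1, KLRD1, NCR1, EPCAM and CDH1. Summed B cell markers fell from 13.6 to 16.7 TPM in DMSO to 2.88 to 3.31 TPM with BRM014, through CD79A (-2.43) and CD79B (-1.10), the antigen receptor partners of B cells. Summed NK and cytotoxic markers stood at 9.47 to 13.9 TPM and then 26.5 to 36.5 TPM, through GZMA, while GZMM (-1.93) fell and NKG7 was not called (-0.06). Myeloid markers stood at 13.7 to 16.2 and then 21.8 to 24.5 TPM, with the factor CEBPA at 1.42 and 6.07 TPM. Erythroid and megakaryocyte markers summed to 19.7 to 24.4 and then 25.4 to 29.3 TPM, and neuronal genes to 242 to 246 and then 276 to 298 TPM, with the neuronal tubulin TUBB3 at 14.2 and 68.6 TPM. The epithelial and fibroblast list, 504 to 577 and then 692 to 766 TPM, consisted mostly of VIM, at 518 and 701 TPM. The part of other cells in these values was not tested.

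**Figure D3:**
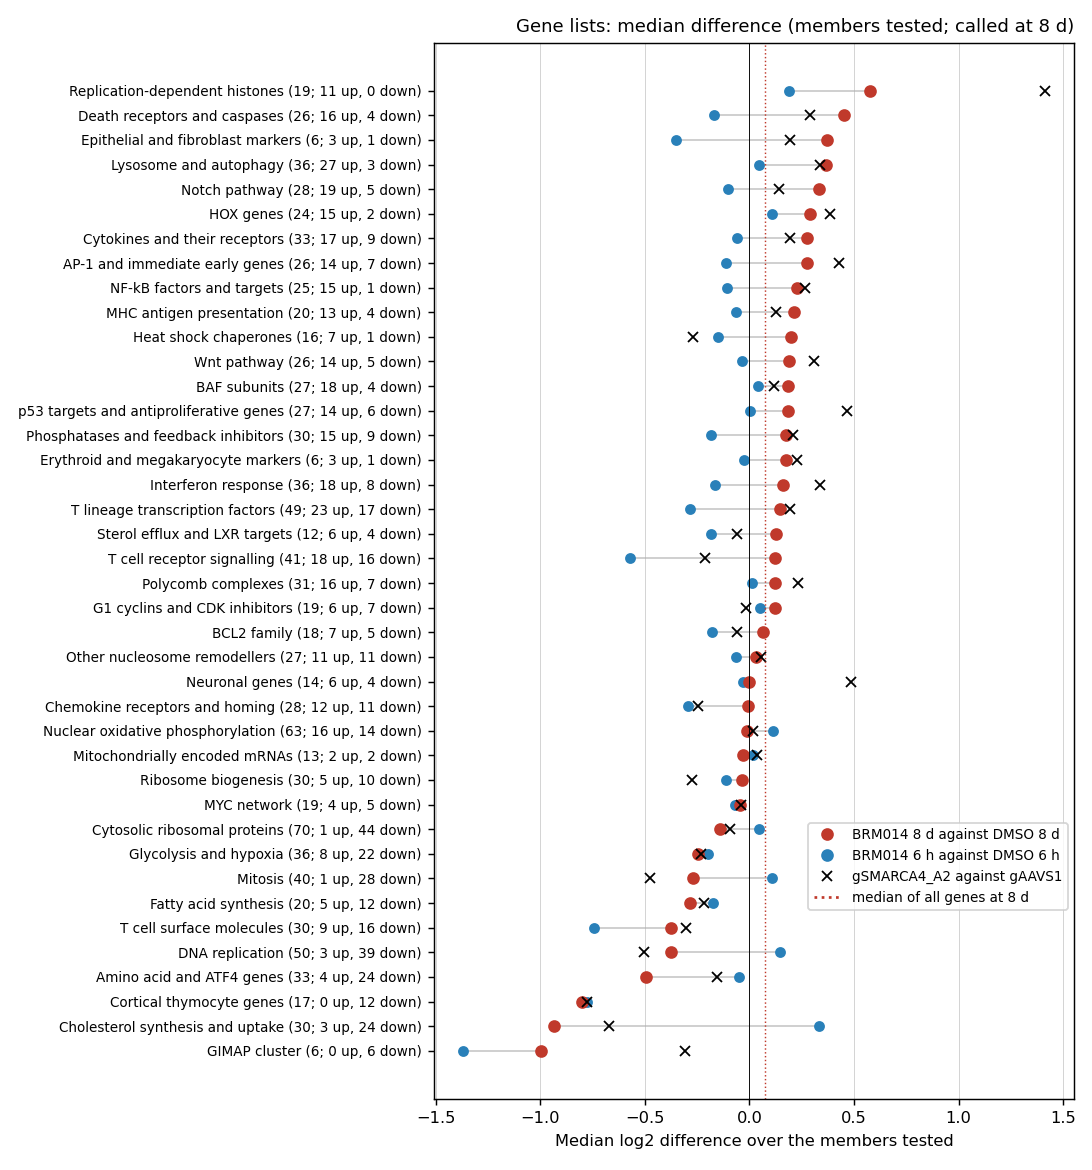
Median log2 difference over the tested members of each gene list, for BRM014 against DMSO at 8 d (red) and at 6 h (blue), and for gSMARCA4_A2 against gAAVS1 (crosses), with the number tested and called at 8 d beside each name. The dotted line is the median of all genes at 8 d, 0.08, and the lists run from replication-dependent histones at 0.58 to the GIMAP cluster at -0.99.

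The response at 8 days was set beside that at 6 h as a difference of differences, each time with its own DMSO group. The difference was called in 7929 genes (44.2%), 4606 upward (25.7%) and 3323 downward (18.5%), and 764 (4.26%) and 221 (1.23%) of them by at least 1. At 6 h itself 47.4% of genes were called, with 0.524% higher and 1.54% lower by at least 1. After median-ratio rescaling 4201 were upward and 4188 downward. Of the 722 genes that rose by at least 1 at 8 days, 251 (34.8%) had been called higher at 6 h, 77 (10.7%) had been called lower and 394 (54.6%) had not been called, against 26.8%, 20.7% and 52.6% of all genes. Of the 383 that fell by at least 1, 262 (68.4%) had been lower at 6 h and 12 (3.13%) higher. The median 6 h difference was 0.15 in the rising set and -0.64 in the falling set, beside 1.29 and -1.36 at 8 days. Since the sets were chosen on their 8 day values, smaller values at 6 h are built in. Across the 17936 genes the 2 sets of differences had a Pearson r of 0.395 and a Spearman rho of 0.341, and genes are not independent.

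Several of the genes with the largest increase had not been called, or had been lower, at 6 h. PTPN6 had been lower at 6 h (-2.30) and was higher at 8 days (1.88), a difference of 4.17 (adjusted p = 4.2e-12). Its DMSO level was 112 TPM at 6 h and 33.1 TPM at 8 days, so that the controls themselves stood apart. EPAS1 turned from -0.87 to 3.17 (difference 4.04), SOCS1 from -0.71 to 2.97 (3.68), SH2D2A from -0.99 to 2.34 (3.33) and SLC16A3 from -1.06 to 2.14 (3.21). ITM2A was at 0.11 and not called at 6 h (adjusted p = 0.32). In SYT11, on the other hand, the effect was 3.23 at 6 h and 3.12 at 8 days, and the difference between them, -0.12, was not called (adjusted p = 0.46).

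Among the decreases, SASH3 was at -2.57 at 6 h and -2.49 at 8 days (difference 0.08, not called, adjusted p = 0.55), and MYC at -0.94 and -0.93. TRAT1 (-1.48 and -4.11) and CXCR4 (-2.41 and -4.21) were called lower at 6 h and more so at 8 days. FXYD2 (-0.50, adjusted p = 0.087), DNTT (-0.52, adjusted p = 0.061) and MGAT4A, an N-glycan branching enzyme (0.22, adjusted p = 0.099), were not called at 6 h and were at -3.77, -3.06 and -2.10 at 8 days. The difference between the times was called in all 3.

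Whole lists differed between the times as well. Cholesterol genes had 17 of 30 higher and 0 lower at 6 h (median 0.33), against 3 and 24 at 8 days, and the difference was called downward in 26 and upward in 0. The summed level of this list overlapped between the groups at 6 h, unlike at 8 days. It was 4430 to 6450 TPM in the DMSO libraries of 6 h and 5612 to 8688 TPM in the BRM014 libraries of 6 h. In the DNA replication list 28 of 50 rose and 4 fell at 6 h (median 0.15), against 3 and 39, with the difference called downward in 41. In the mitosis list 17 of 40 rose and 4 fell at 6 h, against 1 and 28, with the difference downward in 33. Cortical thymocyte genes had medians of -0.78 and -0.80, with the difference called downward in 7 of 17 and upward in 3, and the GIMAP cluster was lower in all 6 at both (-1.37 and -0.99), with the difference called upward in 4. For T cell receptor signalling the difference was upward in 27 of 41 and downward in 3. The summed DMSO level of this list was itself 3775 to 4046 TPM at 6 h and 3029 to 3266 TPM at 8 days. For DNA replication it was 5926 to 6149 TPM and then 5402 to 5503 TPM, while for cortical thymocyte genes the DMSO ranges of both times overlapped. The part of the controls in these differences was not tested.

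**Figure D4:**
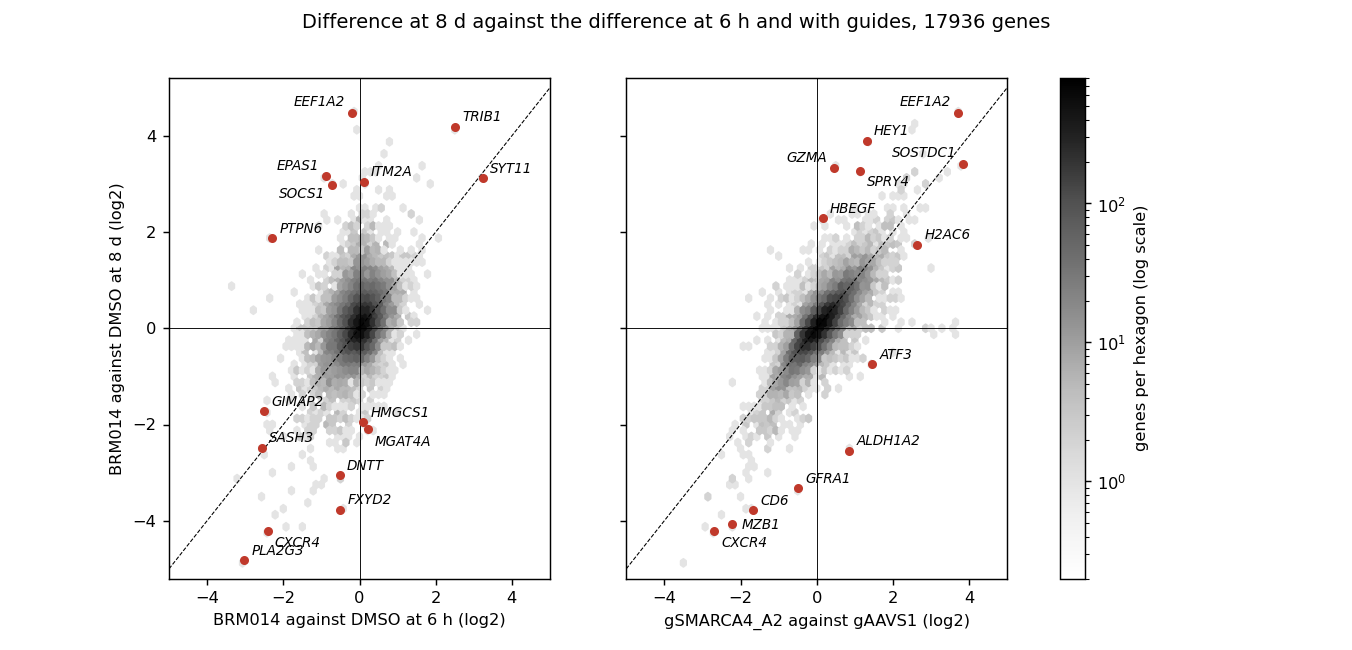
Log2 difference at 8 d (vertical) against that at 6 h (left) and that of gSMARCA4_A2 against gAAVS1 (right) for 17936 genes, as hexagons shaded by the number of genes on a log scale, with named genes in red and the line of equal values dashed. The differences correlated more closely on the right (Pearson r 0.787) than on the left (0.395), where PTPN6 and EPAS1 lie above 0 at 8 d and below 0 at 6 h.

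Guides against the same ATPases gave a further response to set beside that of BRM014, in which agent and time differ together. With guides 62.1% of genes were called, with 4.2% higher and 1.3% lower by at least 1. Of the 722 genes that rose by at least 1 with BRM014, 653 (90.4%) were called higher in gSMARCA4_A2, against 40.9% of all genes, and of the 383 that fell by at least 1, 341 (89%) were called lower, against 21.1% of all. The sets of differences had a Pearson r of 0.787 and a Spearman rho of 0.766 across 17936 genes, from separate control libraries. A difference between the BRM014 and the guide response was called in 2995 genes (16.7%), 1256 upward (7%) and 1739 downward (9.7%), and in 1983 and 1296 after median-ratio rescaling, so that the direction of the majority flipped. By at least 1 it was called upward in 78 genes (0.435%) and downward in 126 (0.702%). The downward count was 1003 without gAAVS1 replicate 3, 1040 without gSMARCA4_A2 replicate 1, 1145 without BRM014 replicate 3 and 1152 without DMSO replicate 1.

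In the genes that follow, the responses to BRM014 and to guides lay more than 1 apart on the log2 scale. SPRY4 rose by 3.27 with BRM014 and by 1.14 with guides (difference 2.13, adjusted p = 1.6e-06), HEY1 by 3.90 and 1.32 (2.58) and GZMA by 3.34, against 0.47 and no call with guides (2.87, adjusted p = 1.4e-05). HBEGF was at 2.29 with BRM014 and 0.15 and not called with guides (2.13, adjusted p = 1.1e-07). ALDH1A2 fell with BRM014 (-2.54) and rose with guides (0.85), a difference of -3.39 (adjusted p = 3.3e-09). GFRA1 fell by 3.32 and by 0.50 (difference -2.82), CD6 by 3.78 and 1.67 (-2.12) and MZB1 by 4.07 and 2.21 (-1.85). ATF3 was lower with BRM014 and higher with guides (1.46), with a difference of -2.20.

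At the level of lists, 46 of 50 DNA replication genes fell with guides (median -0.50), and the difference was upward in 26 of 50, toward a smaller decrease with BRM014. Replication-dependent histones had a median of 1.42 with guides and 0.58 with BRM014, with the difference downward in 10 of 19. In the GIMAP cluster 2 of 6 were lower with guides (median -0.31), and the difference was downward in 5 of 6. Cholesterol genes had a median of -0.67 with guides and -0.94 with BRM014, with the difference called in 1 of 30. SMARCA4 mRNA itself fell by 0.95 with guides, as against its rise of 0.19 with BRM014, and SMARCA2 was not called with guides (0.04, adjusted p = 0.67). These values are of mRNA and not of protein, so how far the guides disrupted either ATPase cannot be read from them.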

How the data were processed

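Poly(A) RNA of Jurkat cells was sequenced from a non-directional kit, per the labels' protocols, which does not keep the strand, so that overlapping genes can share reads. The submitters' processing notes name HISAT2 2.2.1, featureCounts 2.0.3, DESeq2 1.38.2 and hg38. The authors deposited TPM for 38557 genes in 27 Jurkat libraries, with a gene length in bases as a further deposited value. DESeq2 output was not used here. TPM times gene length gave whole numbers within 0.01 for 100% of values above 0, taken as reads, and depth comes from them.

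Log2(TPM + 1) was fitted with limma 3.58.1 in R 4.3.3 (trended, robust eBayes, 18 residual degrees of freedom) over all 27 libraries, for the 17936 genes that reached 1 TPM in 3 or more libraries. P-values were Benjamini-Hochberg adjusted. The script was tested on simulated data. Sequences and coordinates are from RefSeq (GRCh38.p14), and 35589 genes were matched.

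Alternatives were a pseudocount of 0.1, no filter, a filter of 5 TPM, median-ratio rescaling, mitochondrial genes left out, plain eBayes, only the compared groups, a replicate block, limma-voom on recovered reads, each library left out, and thresholds of 0.2 and 2 TPM for silence and expression. Members and the 43 lists were chosen with earlier results of these data known. Genes were named by a rule: the 15 largest called changes each way among protein-coding genes with at least 5 TPM and separate groups, up to 4 called members of each list with the largest changes and its most abundant called member, genes silent in 1 group only, the 8 largest changes each way above 100 TPM, the 8 largest each way in each difference of differences, the cell type markers, and 16 BAF and T-ALL genes. Outside it, MCM6, ASNS, SESN2, CEBPB and the actin genes were chosen after their values were seen. Of 1331 list entries 1327 were in the table. Gene lists have no test of their own. A few named genes are left out of the text.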

Additional observations from a re-analysis of the deposited data

Results flagged for a closer look

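Each value here stands out because the effect of BRM014 at 8 days differed from that at 6 h by a test of the difference itself, the limma contrast of both comparisons with their own DMSO groups, at an adjusted p under 0.05. The difference was higher at 8 days in 4606 genes and lower in 3323. Of 161 genes named in the text and tested, 135 had a called difference, and those that reached 2 on the log2 scale, with the fixed T-ALL and BAF genes, follow as the effect at 8 days minus that at 6 h. The 6 h and 8 day effects rest on separate DMSO libraries, and the part of the controls in the values was not tested.

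Several genes of surface receptors and signalling had a higher effect at 8 days. The difference was 4.17 in PTPN6, 3.68 in SOCS1, 3.33 in SH2D2A, 3.07 in SPRY4 and 2.35 in PTP4A3, which act on signals of receptors and phosphatases. In the surface proteins CCR4, TNFRSF10D, ITM2A and TNFRSF10A it was 2.95, 2.94, 2.94 and 2.84, and in the growth factor HBEGF 2.28. Among regulators of transcription it was 4.04 in EPAS1, 3.14 in HEY1 and 2.13 in IRF1. The elongation factor EEF1A2 had the largest value, 4.66, followed by the secreted protein CTHRC1 (4.29).

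Other genes with a higher effect were the lactate exporter SLC16A3 (3.21), CRIP2 (3.15), DBNDD1 (3.02), granzyme A (GZMA, 2.83), NSMF (2.82), TXNIP (2.43), the actin-capping protein CAPG (2.25), TUBB3 (2.23), the pro-death gene BMF (2.14) and OOEP (2.06). Smaller differences were called in TAL1 (1.68), NOTCH1 (1.11), GATA3 (1.05), MYB (0.60), ARID1B (0.55), SMARCA2 (0.45), TCF7 (0.38) and ARID1A (0.27). TCF7 was lower at both times, and MYB was not called at 8 days. The call for TCF7 was lost with a pseudocount of 0.1, with only the compared groups and with limma-voom.

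A lower effect at 8 days was found in lipid and amino acid genes, among them HMGCS1 (-2.05), ACAT2 (-2.08), LSS (-2.12), MSMO1 (-2.23), ASS1 (-2.25) and SLC7A11 (-2.38). Genes of thymocytes and lymphocytes with such a difference were CD79A (-2.03), MZB1 (-2.14), CD1E (-2.21), DNTT (-2.54) and TRAT1 (-2.63). In FXYD2 and its readthrough transcript FXYD6-FXYD2 it was -3.27 and -2.71, and these cannot be told apart. The rest were GFRA1 (-2.10), the noncoding RNA LOC105375631 (-2.17), ALDH1A2 (-2.17), SPP1 (-2.31) and MGAT4A (-2.32). The call for ASS1 was lost with only the compared groups.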

How the results depend on the processing

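The counts of genes called at 8 days (6612 upward, 4127 downward) stayed within 1.5 times under every alternative run. Counts of changes of at least 1 moved more. With a pseudocount of 0.1 the upward count at 8 days went from 722 to 1336, and in the difference from 6 h the counts of 764 and 221 went to 1283 and 382. In the difference from guides, 78 upward and 126 downward became 146 and 237. With limma-voom on recovered reads the same counts were 1398 upward and 615 (from 383) downward at 8 days, 1272 and 409 for the difference from 6 h, and 169 and 240 for the difference from guides. Genes called higher in the difference from guides went from 1256 to 1983 after median-ratio rescaling, and those called lower from 1739 to 942 with only the compared groups and to between 1003 and 2267 with single libraries left out. Genes switched on (6) were 0 with silence under 0.2 TPM, 44 with expression from 2 TPM and 6 to 10 with single libraries left out, and genes switched off (3) were 20 with expression from 2 TPM. Lower thresholds admit more genes by construction, and for the other shifts the cause was not tested.

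Medians that lay away from 0 and changed sign were those of all genes (0.08 to -0.001) and of the BCL2 family (0.06 to -0.027) after rescaling, and of NK and cytotoxic markers (0.17 to -0.056) with a filter of 5 TPM, which tests fewer genes. Medians near 0 also crossed it in chemokine receptors (-0.01 to 0.04 without DMSO replicate 1), nuclear oxidative phosphorylation (-0.01 to 0.02 without DMSO replicate 3), ribosome biogenesis (-0.03 to 0.02 without DMSO replicate 3) and other remodellers (0.03 to -0.06 after rescaling and -0.03 without DMSO replicate 3). Of 156 genes named in the text and called at 8 days, 148 kept their call under every alternative. The others were ASNS, ATF3, BCL2, CD2, CEBPB, GATA3, SESN2 and SMARCA4. For the differences from 6 h and from guides, 125 of 135 and 70 of 88 kept it.

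Libraries of both groups carry replicate numbers. Deviations of same-numbered libraries at 8 days correlated at 0.001, -0.084 and -0.033, so the numbers did not pair them, and no library correlated best with its own number. At 6 h same-numbered libraries correlated at 0.172, 0.296 and 0.091, each the highest for its library, and unlike numbers at -0.209 to 0.065. The main fit of the difference from 6 h did not use this pairing. With the replicate number as a block 6686 genes were higher and 4196 lower at 8 days, and 4698 and 3431 in the difference from 6 h. This block is shared by all groups and does not model the pairing at 6 h separately. At 8 days 1 read was worth at least 0.0255 TPM on a gene of median length, which limits genes near silence, and n = 3 a group limits the rest.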
